A study of Mus musculus with 4 samples.

Results

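The genes Klhl1, Fam196a, Ampd3, Pamr1, Agtr1b, Snord37 and Rapgef3os2 were selected on the DNA methylation of their promoters, because the mean over the 344SQR tumors was lower than the mean over the 344SQP tumors. They are 7 of 20135 mouse promoters with data in the genome build GRCm38 (mm10). A promoter took in the 1000 bp before and the 500 bp after every transcription start site (TSS) of a gene. Because this contrast chose the genes, every difference between the lines given for them, in the promoters and in the 5 kb on either side, is a description, and the counts of calls given once for them support nothing. The genes were listed by name from promoters in a heatmap of the study. The study filled that heatmap by significance in these same tumors, with a minimum number of CpG sites and a minimum difference. The condition applied here was a lower mean with no minimum size, which many promoters outside the 7 also met. The promoter of Ado, not one of the 7, met it by the least, with means of 0.9111% in 344SQP and 0.9105% in 344SQR. It was missed by 37 promoters with equal means and, next, by 1700069B07Rik, with 1.2571% in 344SQP and 1.2575% in 344SQR.

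The data are reduced representation bisulfite sequencing of 4 tumors, made to compare tumors that resist an antibody against the checkpoint receptor PD1 with tumors of the line they came from. 344SQP is a mouse lung adenocarcinoma line, the parental one, and 344SQR is a line derived from it that resists the antibody. Both groups (n = 2 tumors each, from separate mice) grew from cells injected under the skin of the leg of syngeneic female 129Sv/Ev mice aged 12 to 16 weeks. Every mouse of both groups received anti-PD1 at 10 mg/kg from day 4, for 4 doses, and the tumors were taken 24 h later than the final dose. No untreated tumor served as a control. The tumors were bulk tissue and held host cells beside tumor cells, so a different mix of cells and a different methylation within a cell type cannot be told apart.

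DNA methylation in mammals sits mostly on cytosines of CpG dinucleotides. CpG-rich promoters are usually unmethylated whether or not the gene is active, and CpG-poor promoters are more often methylated and vary between tissues. The assay cuts the genome at CCGG, so it reads CpGs close to that motif. Bisulfite turns unmethylated cytosines into bases read as T, and the percent of reads that still show C is the methylation level of a site.

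The tables held 116794455 and 138331886 CpG calls for the 344SQP tumors and 160548303 and 174689402 for the 344SQR tumors, with replicate 1 named before replicate 2 here and in every pair of values below. A site is a CpG cytosine on 1 strand, and it qualified with at least 20 reads in all 4 tumors, which 1081201 sites did. Mean coverage at those sites was 103.4 and 120.9 reads in 344SQP and 140.5 and 144.3 reads in 344SQR. A promoter's level is the mean methylation of its qualified sites. Over all 20135 promoters it averaged 22.9% and 24.5% in the 344SQP tumors and 21.8% and 21.6% in the 344SQR tumors.

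All 7 promoters had qualified sites, 165 in total, each on a CpG of the build and within 1 read length (50 bases) of a CCGG. Their number ran from 4 in Klhl1 to 72 in Fam196a, with 50 in Ampd3, 18 in Rapgef3os2, 8 in Agtr1b, 7 in Pamr1 and 6 in Snord37. The ratio of observed to expected CpG in the 7 promoters ran from 0.259 in Rapgef3os2 to 0.576 in Fam196a, all 7 below the median of 0.598 over the 35915 single TSS windows of tested promoters. Between 2 CCGG motifs (Agtr1b) and 17 (Ampd3) lay in a promoter. Sites within 50 bases on 1 strand often share reads, so the sites of a promoter are not independent of each other.

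Ampd3 encodes an AMP deaminase, an enzyme that converts AMP to IMP and is known best from red blood cells. Its promoter methylation was 18.7% and 25.0% in the 344SQP tumors and 10.1% and 11.4% in the 344SQR tumors. Both 344SQR tumors lay below both 344SQP tumors, and the 344SQR tumors were close together. The means were 21.8% ± 4.41 (SD, n = 2) in 344SQP and 10.8% ± 0.929 (SD, n = 2) in 344SQR, a difference of -11.1 percentage points over 50 sites with 29 to 274 reads each. It was the smallest difference of the 7 genes.

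Ampd3 has 3 annotated TSSs on the forward strand of chromosome 7, and their windows were read separately. The window of the distal TSS, at position 110768206, held 18 sites with 41.0% and 49.5% in 344SQP and 22.8% and 28.0% in 344SQR, a difference of -19.9 points. All 18 also lie in the window of the middle TSS at 110768911, which adds the other sites. The window of the TSS at 110772604 held no qualified site. Counted from the distal TSS alone, the difference between the lines was thus larger than that over the whole promoter.

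Most sites of Ampd3 lay in a methylated stretch near the distal TSS or in an almost unmethylated one after it. In the 4 sites just upstream of the distal TSS, from 110768127 to 110768187, methylation was 81.9% and 89.1% in 344SQP and 42.2% and 43.8% in 344SQR. In the 3 sites of the untranslated first exon, from 110768327 to 110768363, it was 41.5% and 78.6% in 344SQP and 19% and 37.9% in 344SQR. The means of the lines did not overlap in either stretch, although in the exon 344SQR replicate 2 came close to 344SQP replicate 1 and the lines were apart at only 1 of the 3 sites. In the 39 sites around the middle TSS, from 110768613 to 110769015, methylation was 5.69% and 9.81% in 344SQP and 1.49% and 2.09% in 344SQR. Past them, a single site at 110769150 had 30.3% (76 reads, 95% Wilson interval 21.1 to 41.3) and 45.9% (109 reads, 36.8 to 55.2) in 344SQP and 43.2% (81 reads, 33.0 to 54.1) and 4.30% (70 reads, 1.47 to 11.9) in 344SQR, and the lines overlapped there. The many low sites around the middle TSS weighed down the mean over the promoter.

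The largest difference at a single Ampd3 site, -51.1 points, lay at 110768156, 50 bases upstream of the distal TSS. Its methylation was 97.5% (40 reads, 87.1 to 99.6) and 97.9% (48 reads, 89.1 to 99.6) in 344SQP. In 344SQR it was 46.0% (50 reads, 33.0 to 59.6) and 47.2% (36 reads, 32.0 to 63.0). Such intervals cover counting error only, since reads without molecular identifiers may be copies of 1 molecule. Of the 165 sites of the 7 genes, 2 had a higher mean in 344SQR, and both lay in Ampd3. The most upstream site, at 110767986, had 83.1% (154 reads, 76.4 to 88.2) and 85.5% (124 reads, 78.2 to 90.6) in 344SQP and 81.6% (152 reads, 74.7 to 86.9) and 88.2% (136 reads, 81.7 to 92.6) in 344SQR. The site at 110768613 had 4.10% (98 reads, 1.60 to 10.0) and 5.30% (132 reads, 2.59 to 10.5) in 344SQP and 4.00% (124 reads, 1.73 to 9.09) and 11.4% (123 reads, 6.90 to 18.2) in 344SQR. At both sites the intervals of all 4 tumors overlapped.

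The stretch that ends at the distal TSS and a part of the almost unmethylated stretch are printed. They lie close together and differ widely in level. Both come from the RefSeq genome sequence of GRCm38 (mm10), forward strand, with every CpG in capitals, as in all sequences below. The upper one held 7 qualified sites with means of 79.9% and 83.4% in 344SQP and 49.5% and 53.0% in 344SQR. The lower one held 11 sites with means of 2.52% and 6.76% in 344SQP and 1.2% and 1.31% in 344SQR.
Ampd3 upstream of the distal TSS, chr7:110767956-110768205: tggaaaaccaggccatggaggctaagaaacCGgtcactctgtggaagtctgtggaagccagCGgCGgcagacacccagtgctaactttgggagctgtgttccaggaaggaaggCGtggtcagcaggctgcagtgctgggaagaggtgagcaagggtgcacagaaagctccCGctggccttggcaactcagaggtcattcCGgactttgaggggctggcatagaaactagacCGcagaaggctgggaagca
Ampd3 between the distal and middle TSSs, chr7:110768816-110768845: CGtacCGggcCGCGcaggCGtcagtgCGct

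No qualified site lay in the 5 kb upstream of the Ampd3 windows. The 8 sites downstream had means of 62.1% and 57.6% in 344SQP and 52.6% and 52.7% in 344SQR. They formed separate clusters. The 4 sites from 110773921 to 110774016 had 27.3% and 21.2% in 344SQP and 31.9% and 10.6% in 344SQR, so the lines overlapped there. The 3 sites of the coding exon from 110777855 to 110777891 had 95.8% and 93.4% in 344SQP and 80.2% and 94.5% in 344SQR, where 344SQR replicate 1 alone was low. On the reverse strand, the unclassified transcript B430319F04Rik covers the same start region. Its own promoter held 9 sites, all shared with Ampd3, at 9.37% and 16.4% in 344SQP and 6.63% and 3.20% in 344SQR.

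Agtr1b encodes the second type 1 angiotensin II receptor of rodents, a G protein-coupled receptor on which the peptide raises blood pressure. Promoter methylation was 45.2% and 44.9% in 344SQP and 25.0% and 15.2% in 344SQR. The parental tumors were almost equal, and both resistant tumors lay far below them. The means were 45.0% ± 0.177 (SD, n = 2) and 20.1% ± 6.93 (SD, n = 2), a difference of -24.9 points over 8 sites with 135 to 287 reads each. The gap between the lower 344SQP and the higher 344SQR tumor, 19.9 points, was the widest of the 7 genes.

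The 2 annotated TSSs of Agtr1b, at 20367124 and 20367177 on the reverse strand of chromosome 3, share all 8 sites, so they cannot be told apart by these data. The sites span 77 bases, from 121 to 197 bases downstream of the outer TSS, across the end of the untranslated first exon and the start of the first intron. All 8 were lower in both 344SQR tumors than in both 344SQP tumors, as were 20.9% of all qualified sites. The difference was largest, at -34.2 points, at 20367042 in the exon. There methylation was 47.5% (198 reads, 40.6 to 54.4) and 43.3% (252 reads, 37.3 to 49.4) in 344SQP and 14.4% (278 reads, 10.7 to 19) and 8.0% (287 reads, 5.40 to 11.7) in 344SQR. In 344SQR replicate 1 the 3 exon sites stood at 14.4% to 19.1% and the 5 intron sites at 26.4% to 35.0%. At 20367024 in the intron the values were 46.0% (137 reads, 37.9 to 54.3) and 46.2% (171 reads, 38.9 to 53.7) in 344SQP and 35.0% (197 reads, 28.7 to 41.9) and 20.4% (181 reads, 15.2 to 26.9) in 344SQR. The 5 kb flanks of Agtr1b held no qualified site. The start of the intron is printed because it held 5 of the 8 sites, with means of 46.7% and 47.3% in 344SQP and 30.2% and 19.4% in 344SQR. It is the reverse strand, from RefSeq, and begins at the first base after the exon.
Agtr1b intron 1, chr3:20366970-20367033: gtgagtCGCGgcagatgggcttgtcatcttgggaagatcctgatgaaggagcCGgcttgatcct

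Pamr1 encodes a secreted protein with CUB, sushi and inactive trypsin-like domains, named after its link to muscle regeneration. Promoter methylation was 22.9% and 34.8% in the 344SQP tumors and 8.50% and 4.37% in the 344SQR tumors. The resistant tumors lay below both parental tumors at each of its 7 sites, beside 20.9% of all qualified sites. The means were 28.9% ± 8.39 (SD, n = 2) and 6.44% ± 2.92 (SD, n = 2), a difference of -22.4 points at 83 to 241 reads a site. The sites crowd around the single TSS, at 102550012 on the forward strand of chromosome 2, from 48 bases upstream to 38 bases downstream of it.

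Within those 87 bases of Pamr1, the differences at single sites ran from -28.7 to -16.5 points. The lowest levels in 344SQR lay at the CpG 10 bases upstream of the TSS, where the forward strand had 2.50% (240 reads, 1.15 to 5.35) and 1.60% (190 reads, 0.538 to 4.54). The same site had 17.3% (196 reads, 12.7 to 23.3) and 39.9% (163 reads, 32.7 to 47.5) in 344SQP. No qualified site lay in either 5 kb flank, so these data do not show how far the low level reached.

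Klhl1 encodes a kelch-like, actin-binding protein found mainly in neurons. Promoter methylation was 25.1% and 38.3% in 344SQP and 10.6% and 7.40% in 344SQR. At each of its 4 sites the 344SQR tumors lay under the 344SQP tumors without overlap, beside 20.9% of all qualified sites. The means were 31.7% ± 9.39 (SD, n = 2) and 8.99% ± 2.25 (SD, n = 2), a difference of -22.7 points at 102 to 146 reads a site. Only 4 of the 29 CpGs in the promoter had a qualified site, and all 4 lay within 36 bases on the reverse strand, the strand of the gene. They share reads, and they lay 453 to 488 bases downstream of the TSS at 96519102 of chromosome 14, at the edge of the promoter, in the untranslated part of exon 1.

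The nearest 28 sites downstream of the Klhl1 promoter, out to 1339 bases from the TSS, gave a different order of the tumors. Their means were 37.3% and 72.3% in 344SQP and 26.6% and 36.1% in 344SQR. The mean of 344SQR was lower than that of 344SQP at all 28 sites, by -23.5 points over them. The lines were fully apart at 13 of the 28, beside 20.9% of all qualified sites. Here 344SQP replicate 2 stood far above the other 3 tumors, and 344SQP replicate 1 lay close to 344SQR replicate 2. Without 344SQP replicate 2 the difference was -6.03 points, and without 344SQP replicate 1 it was -41.0 points. Upstream of the promoter no site within 5 kb qualified.

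The first bases of the Klhl1 coding sequence show this most clearly. At 96518240 methylation was 7.10% (70 reads, 3.09 to 15.7) and 63.4% (82 reads, 52.6 to 73.0) in 344SQP and 9.30% (140 reads, 5.51 to 15.2) and 10.0% (90 reads, 5.35 to 17.9) in 344SQR. A stretch at the downstream edge of the promoter and one from the coding start are printed to set both patterns side by side. The edge stretch, whose last 3 bases lie outside the promoter, held 2 sites with means of 27.2% and 47.3% in 344SQP and 9.90% and 10.3% in 344SQR. The coding stretch held 9 sites with means of 21.1% and 68.9% in 344SQP and 17.3% and 24.9% in 344SQR. Both are the reverse strand, from RefSeq, and the coding stretch starts at the start codon.
Klhl1 exon 1, untranslated part, chr14:96518599-96518628: cccCGcaagctcctCGtggattctaagccc
Klhl1 exon 1, coding part, chr14:96518218-96518317: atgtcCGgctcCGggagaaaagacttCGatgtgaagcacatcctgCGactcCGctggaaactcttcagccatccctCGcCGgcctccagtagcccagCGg

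Fam196a, also named Insyn2a, encodes a protein of inhibitory synapses. Promoter methylation was 32.0% and 43.5% in 344SQP and 9.92% and 19.8% in 344SQR. Both resistant tumors lay below both parental tumors, and replicate 2 was the higher tumor in each line. The means were 37.7% ± 8.15 (SD, n = 2) and 14.9% ± 7.00 (SD, n = 2), a difference of -22.9 points. The promoter was the most densely read of the 7, with 72 sites on 44 of its 77 CpGs at 26 to 242 reads. At 28 CpGs both strands qualified, and the strands differed on average by 5.10 and 6.08 points in the 344SQP tumors and by 2.56 and 2.31 points in the 344SQR tumors.

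All 72 sites of Fam196a had a lower mean in 344SQR. At 63 of them the lines did not overlap, beside 20.9% of all qualified sites. The 72 sites lay from 63 to 493 bases downstream of the TSS at 134938430 on the reverse strand of chromosome 7. They are in the untranslated first exon, which itself lies in an intron of Dock1. The largest difference, -51.5 points, was at 134937966, where the reads were few. It had 75.0% (28 reads, 56.6 to 87.3) and 62.2% (37 reads, 46.1 to 75.9) in 344SQP and 3.40% (29 reads, 0.611 to 17.2) and 30.8% (26 reads, 16.5 to 50.0) in 344SQR. The smallest, -2.55 points, was 20 bases away at 134937946. There 344SQP replicate 1 had 10.7% (28 reads, 3.71 to 27.2) and 344SQP replicate 2 had 43.2% (37 reads, 28.7 to 59.1), against 10.3% (29 reads, 3.58 to 26.4) and 38.5% (26 reads, 22.4 to 57.5) in 344SQR, so the tumors with the same number were alike.

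The lower methylation of Fam196a in 344SQR went on a little past the edge of the promoter. The 12 sites from 134937865 to 134937920 had 24.3% and 38.9% in 344SQP and 6.57% and 10.2% in 344SQR. In the first intron, the 4 sites from 134937587 to 134937624 had 47.1% and 85.4% in 344SQP and 60.7% and 64.3% in 344SQR, and the lines overlapped. The 2 sites from 134935331 to 134935352, farther in, had a mean above 92% in each of the 4 tumors. Over the whole downstream flank of 18 sites the means were 37.5% and 55.7% in 344SQP and 28.5% and 31.4% in 344SQR, a difference of -16.7 points, which was -7.59 without 344SQP replicate 2 and -25.8 without 344SQP replicate 1. Dock1, on the other strand, starts far away and its promoter was almost unmethylated, at 2.76% and 1.57% in 344SQP and 1.43% and 1.35% in 344SQR. A stretch of 30 bases of the exon is printed because it held 20 sites on 10 CpGs. Their means were 39.9% and 53.8% in 344SQP and 13.2% and 24.7% in 344SQR. It is the reverse strand, from RefSeq.
Fam196a exon 1, chr7:134938024-134938053: cCGcCGCGcCGCGatCGggCGagCGCGCGg

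**Figure D1:**
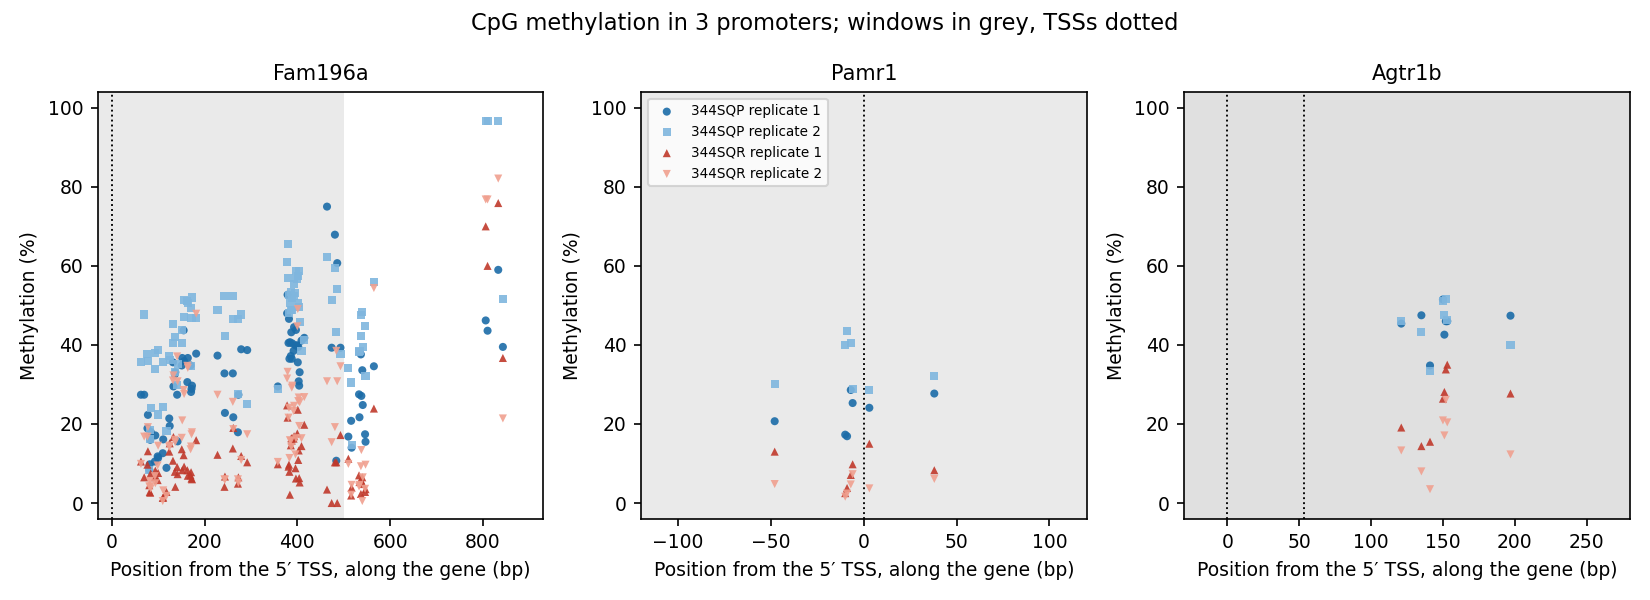
Methylation of single CpG sites (percent) in Fam196a with the first bases of its downstream flank, in Pamr1 and in Agtr1b, against the distance from the 5′ TSS along the gene in bp; each symbol is 1 site in 1 of the 4 tumors, grey marks the promoter windows and dotted lines the TSSs. In Pamr1 and Agtr1b the 344SQR symbols lie below the 344SQP symbols at each of the 7 and 8 sites. In Fam196a they do so at 63 of the 72 sites in the promoter, beside 20.9% of all qualified sites.

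Snord37 is a C/D box small nucleolar RNA, a class that guides 2′-O-methylation of ribosomal RNA, and it is cut from an intron of Eef2, the gene of a translation elongation factor. Promoter methylation was 75.0% and 66.1% in 344SQP and 52.4% and 19.7% in 344SQR. The lines did not overlap, but the tumors of 344SQR stood far apart, with means of 70.5% ± 6.23 (SD, n = 2) in 344SQP and 36.0% ± 23.1 (SD, n = 2) in 344SQR. Site by site, its 6 sites fell into groups of 3. From 81179053 to 81179101 the means were 72.3% and 70.3% in 344SQP and 48.7% and 15.9% in 344SQR, and from 81179258 to 81179358 they were 77.6% and 62.0% in 344SQP and 56.1% and 23.4% in 344SQR. Both groups show the same order, with 344SQR replicate 2 far below the other 3 tumors and 344SQR replicate 1 nearer to the parental tumors. The lines did not overlap at any of the 6 sites, beside 20.9% of all qualified sites where both 344SQR tumors were lower. The 6 sites had 57 to 248 reads each. The difference was -34.5 points with all 4 tumors and -18.1 points without 344SQR replicate 2.

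None of the 6 sites lies in Snord37 itself, whose 64 bases run from 81178950 to 81179013 on the forward strand of chromosome 10. They lie 103 to 408 bases downstream of its start, 4 in coding exons and 2 in introns of Eef2. The largest difference at a single site, -47.3 points, was at 81179101 in an Eef2 exon, with 80.7% (57 reads, 68.7 to 88.9) and 78.7% (61 reads, 66.9 to 87.1) in 344SQP and 43.5% (62 reads, 31.9 to 55.9) and 21.4% (98 reads, 14.5 to 30.5) in 344SQR. The promoter of Snord37 by this rule is thus at the same time part of the body of Eef2.

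Most qualified sites in the 5 kb flanks of Snord37 were almost unmethylated in every tumor. No site qualified between 81177249 and 81179053 or between 81179358 and 81182716. These data thus do not show how far the methylated stretch reached. The 56 sites in the 5 kb upstream had means of 2.45% and 2.27% in 344SQP and 2.47% and 1.51% in 344SQR. The 24 sites downstream, all in the promoter of Dapk3, had 1.01% and 1.15% in 344SQP and 1.29% and 1.08% in 344SQR. The promoter of Eef2 itself, with 47 sites, stood at 0.713% and 1.29% in 344SQP and 0.966% and 1.34% in 344SQR. The neighbouring gene 4930442H23Rik had no qualified promoter site. The most methylated upstream sites were at the far end, where 81174764 had 43.9% and 26.7% in 344SQP and 39.9% and 8.0% in 344SQR at 113 to 148 reads, so replicate 2 was lower in both lines. The RNA and the bases after it are printed to show that the CpGs with data follow the RNA. The sequence is the forward strand, from RefSeq, its first 64 bases are the RNA, and the last 3 of its 4 CpGs carried the qualified sites.
Snord37 and downstream bases, chr10:81178950-81179110: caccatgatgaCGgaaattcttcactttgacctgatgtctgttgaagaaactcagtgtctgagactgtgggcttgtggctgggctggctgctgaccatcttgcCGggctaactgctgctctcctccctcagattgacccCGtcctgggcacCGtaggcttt

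Rapgef3os2 is a noncoding RNA transcribed opposite to Rapgef3, the gene of Epac1, a cAMP sensor that activates Rap GTPases. Promoter methylation was 40.8% and 63.5% in 344SQP and 26.9% and 10.9% in 344SQR. The lines did not overlap, but the tumors of each line stood far apart. The means were 52.1% ± 16.1 (SD, n = 2) and 18.9% ± 11.3 (SD, n = 2), a difference of -33.2 points over 18 sites with 42 to 234 reads. Without 344SQP replicate 2 the difference was -21.8 points. At all 18 sites both 344SQR tumors were lower than both 344SQP tumors, as at 20.9% of all qualified sites.

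Most sites of Rapgef3os2 lie in its first exon, downstream of the TSS at 97766549 on the forward strand of chromosome 15. The 12 sites of the exon from 97766717 to 97766903 had 47.2% and 71.9% in 344SQP and 32.9% and 11.7% in 344SQR. The largest difference, -49.9 points, was at 97766827, with 53.5% (144 reads, 45.3 to 61.4) and 89.4% (113 reads, 82.4 to 93.8) in 344SQP and 35.8% (173 reads, 29.1 to 43.2) and 7.30% (233 reads, 4.60 to 11.4) in 344SQR. The next clusters along the gene had lower means in every tumor. Methylation was 24.4% and 42.3% in 344SQP and 9.12% and 5.53% in 344SQR at the 4 sites from 97767007 to 97767049. Just past the promoter, at the 3 sites from 97767076 to 97767103, it was 13.8% and 30.1% in 344SQP and 8.70% and 4.17% in 344SQR. From 97767702 on, each cluster of sites had a mean below 6% in all 4 tumors.

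Upstream, the 2 sites from 97765643 to 97765654, inside the Rapgef3os2 promoter, had 35.0% and 55.7% in 344SQP and 26.9% and 17.2% in 344SQR. Beyond them, the 17 sites of the upstream flank were highly methylated in all tumors, with means of 91.5% and 93.4% in 344SQP and 89.8% and 89.9% in 344SQR. A single site there, at 97762320, stood apart with 97.3% (73 reads, 90.5 to 99.2) and 96.1% (51 reads, 86.8 to 98.9) in 344SQP and 69.7% (76 reads, 58.7 to 78.9) and 71.1% (76 reads, 60.0 to 80.04) in 344SQR. The promoter thus lies between highly methylated sites upstream and almost unmethylated sites downstream. No site qualified between 97762938 and 97765643 or between 97765654 and 97766717, so the passage between these levels was not read there.

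The promoter of Rapgef3 shares 16 of its 59 sites with Rapgef3os2 and stood at 14.7% and 21.4% in 344SQP and 9.40% and 4.81% in 344SQR. The mean of each line was 18% ± 4.71 (SD, n = 2) and 7.11% ± 3.25 (SD, n = 2). Rapgef3os1, which starts upstream, had 90.2% and 93.0% in 344SQP and 88.3% and 89.9% in 344SQR at its 6 promoter sites. Part of the first exon of Rapgef3os2 is printed because it held 8 qualified sites, with means of 49.6% and 72.0% in 344SQP and 35.1% and 12.2% in 344SQR. It is the forward strand, from RefSeq. The whole stretch also lies in an exon of Rapgef3os1, and its bases from 97766762 to 97766854 are coding sequence of Rapgef3 on the other strand.
Rapgef3os2 exon 1, chr15:97766697-97766854: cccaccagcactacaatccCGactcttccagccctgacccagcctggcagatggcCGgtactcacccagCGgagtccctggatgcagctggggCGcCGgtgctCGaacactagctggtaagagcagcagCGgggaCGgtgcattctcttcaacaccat

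**Figure D2:**
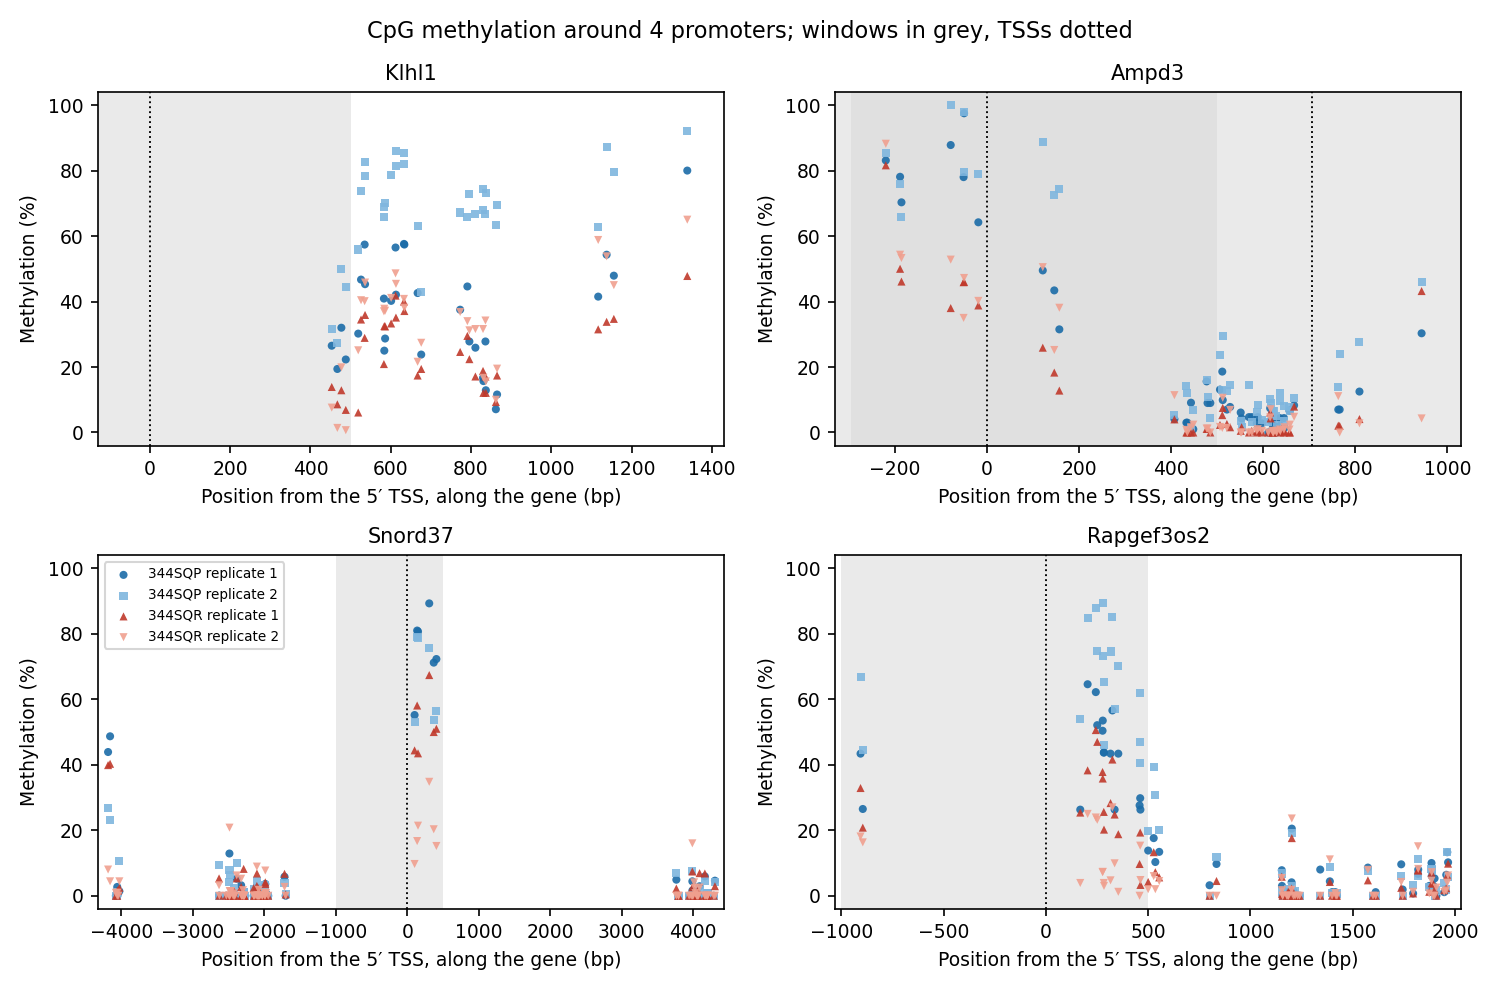
Methylation of single CpG sites (percent) around Klhl1, Ampd3, Snord37 and Rapgef3os2 against the distance from the 5′ TSS along the gene in bp; each symbol is 1 site in 1 of the 4 tumors, grey marks the promoter windows, dotted lines the TSSs, and sites outside the drawn range are not shown. In Klhl1 344SQP replicate 2 stands above the other 3 tumors past the window, and in Ampd3 high sites near the distal TSS give way to 39 low sites. In Snord37 most sites drawn on either side of the 6 methylated sites are almost unmethylated, with wide stretches between them that held no qualified site.

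Set beside each other, the promoter levels in 344SQP ran from Snord37 (70.5%) over Rapgef3os2 (52.1%), Agtr1b (45.0%), Fam196a (37.7%), Klhl1 (31.7%) and Pamr1 (28.9%) down to Ampd3 (21.8%). In 344SQR they ran from Snord37 (36.0%) over Agtr1b (20.1%), Rapgef3os2 (18.9%), Fam196a (14.9%), Ampd3 (10.8%) and Klhl1 (8.99%) down to Pamr1 (6.44%). Neighbours in either order differed by less than the larger SD of their tumors, except Snord37 and Rapgef3os2 in 344SQP. By size of difference among all 20135 promoters, Snord37 stood at place 94 from the lowest, Rapgef3os2 at 111, Agtr1b at 331, Fam196a at 438, Klhl1 at 446, Pamr1 at 458 and Ampd3 at 1744. The median difference of the 7 was -22.9 points, beside -0.234 points over all promoters, as follows from the choice. Of all promoters, 596 (2.96%) had a difference of -20 points or lower. Among the 16692 promoters with at least 5 sites, 119 (0.713%) did.

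**Figure D3:**
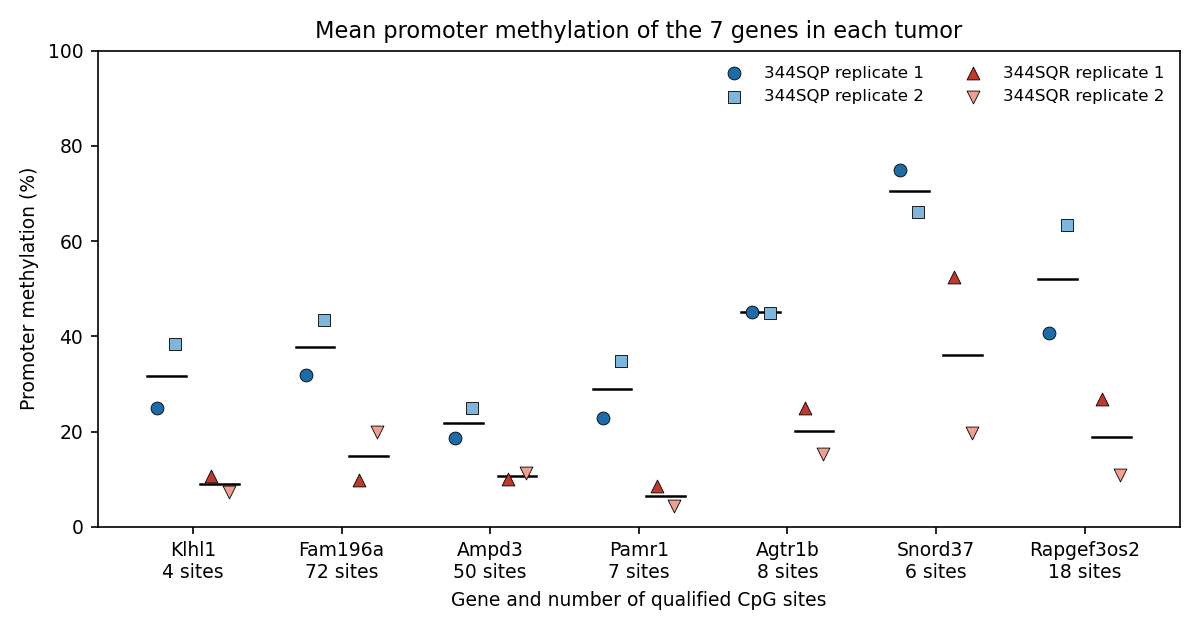
Promoter methylation (percent, mean over qualified CpG sites) of the 7 genes in each of the 4 tumors; symbols are tumors and bars the mean of the 2 tumors of a line. Both 344SQR tumors lie below both 344SQP tumors in all 7 genes, and the tumors of a line lie farthest apart in Snord37 (344SQR) and Rapgef3os2 (344SQP).

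All 7 promoters had lower levels in both 344SQR tumors than in both 344SQP tumors, as did 32.4% of all promoters. By a likelihood ratio test at each site, combined over the sites of a promoter and adjusted over all promoters, 7 of 7 were called lower, beside 29.5% of all promoters. That test counts reads and not the spread between tumors. By the quasi-likelihood test of edgeR, which does count it, 0 of 7 were called, beside 0.0696% of all promoters. At an unadjusted p under 0.05, edgeR gave 6 of 7, beside 7.9% of all promoters. Without a block, its adjusted p ran from 0.147 (Ampd3, log2 odds ratio -1.52, lower in both 344SQR tumors) to 0.579 (Snord37, log2 odds ratio -2.06, lower in both 344SQR tumors). When a block for the replicate number was added, edgeR called 7 of 7, beside 9.37% of all promoters, so the call turned on the block, and the labels do not say what tumors of the same number share. Since this contrast chose the genes, nothing is read from these counts.

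The difference between tumors of the same line was not used in the choice. In 344SQP, replicate 2 was higher than replicate 1 in 5 of 7 genes (57% of all promoters), by 6.24 points in Ampd3 to 22.7 points in Rapgef3os2, and not in Agtr1b (-0.25 points) and Snord37 (-8.82 points). In 344SQR, replicate 2 was lower in 5 of 7 (46.6% of all promoters), by -3.18 points in Klhl1 to -32.7 points in Snord37, and higher in Fam196a (9.90 points) and Ampd3 (1.31 points). With 1 tumor on each side these values have no test. In 3 of the genes, Klhl1, Pamr1 and Rapgef3os2, replicate 2 was both the higher parental and the lower resistant tumor.

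Likeness to other promoters was measured by the root mean square difference over the 4 tumors among 16691 or 16692 other promoters with at least 5 sites. The closest promoter was Lrrtm3 for Klhl1 (2.60 points), Gimap1 for Fam196a (3.50 points), Gsx1 for Ampd3 (1.19 points) and Slc2a13 for Pamr1 (2.53 points). It was Gm15764 for Agtr1b (4.12 points), Mag for Snord37 (4.50 points) and Nlgn3 for Rapgef3os2 (5.41 points). For Ampd3, 262 promoters lay within 5 points, and for Rapgef3os2 0 did, the most and the fewest of the 7 genes.

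Genes related to the 7 by family or pathway are given without the 7 themselves, and their counts stand beside 5932 (29.5%) of all 20135 promoters that fell and 1816 that rose. Without 344SQR replicate 2 those numbers were 5767 and 798, and the lists were not counted again without a tumor. Of 17 tested genes of AMP and adenosine metabolism, 5 fell and 1 rose by the likelihood ratio test (median difference -0.197 points), and 15 were under 20% in all 4 tumors. Ampd2, the AMP deaminase most related in role, had 1.59% and 1.66% in 344SQP and 1.51% and 1.48% in 344SQR, and Ampd1 had no tested promoter. Nt5c1a, a nucleotidase that acts on AMP, rose, from 19.1% ± 6.79 (SD, n = 2) in 344SQP to 27.5% ± 4.39 (SD, n = 2) in 344SQR. Hprt and Aprt, which salvage purine bases, fell with overlapping tumors, Hprt from 23.0% and 13.3% to 19.2% and 8.59% and Aprt from 4.91% and 2.72% to 2.82% and 2.04%. Of 10 tested genes of the angiotensin system, 3 fell and 2 rose (median -0.231). Agtr1a, the close paralog of Agtr1b, rose from 9.64% and 12.5% to 10.8% and 19%, with overlapping tumors, and Agtr2 had no tested promoter. Anpep, an aminopeptidase, rose by 4.91 points with overlapping tumors, and Ctsa, the lysosomal cathepsin A, fell by 2.72 points.

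Of 17 tested genes of Epac and Rap signalling, 5 fell and 3 rose (median -0.257), beside 29.5% of all promoters that fell. Among the 5 is Rapgef3, which shares sites with the selected promoter of Rapgef3os2. Rap1gap, which turns Rap1 off, fell from 10.8% ± 4.40 (SD, n = 2) to 3.93% ± 1.53 (SD, n = 2). Radil, a Rap effector in cell adhesion, rose from 11.4% ± 2.40 (SD, n = 2) to 20.2% ± 6.07 (SD, n = 2). Rapgef4, the gene of Epac2, had 24.6% and 24.8% in 344SQP and 25.3% and 22.1% in 344SQR and was not called. Of 28 tested kelch-like genes, 7 fell and 1 rose (median -0.262). Klhl13 rose from 23.8% to 33.8%, Klhl14 fell from 27.7% to 23.1% with overlapping tumors and Klhl23 fell from 7.97% to 4.51%. Klhl4 had 41.9% and 44.5% in 344SQP and 45.5% and 39.8% in 344SQR and was not called. Klhl5 was among the 7 that fell, although it was under 2% in all 4 tumors.

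Of 28 tested C/D box snoRNA promoters other than Snord37, 0 fell and 3 rose by the likelihood ratio test, and edgeR called 0 (median 0.0261 points). Each of the 3 had a single site, Snord50a and Snord50b the same one, and several promoters of the list share their sites. Of 156 tested opposite-strand RNAs other than Rapgef3os2, 59 fell and 13 rose (median -0.537), among them Pnpla1os (-18.5 points), Fcnaos (-14.5 points) and Wt1os (12.9 points, with overlapping tumors). Of 7 tested CUB and sushi domain genes, 2 fell and 3 rose (median 0.6), with Csmd2 higher by 11.5 points, Sez6l by 3.8 points and Csmd3 lower, at -6.11 points, where the tumors of Csmd2 and Sez6l overlapped. Of 15 tested genes of inhibitory synapses, 8 fell and 5 rose (median -1.09), among them Gabra2 (-8.84 points) and Slc6a5 (7.49 points), both with overlapping tumors, and Fam196b had no tested promoter. The edgeR test called 0 promoters in each of these lists.

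No share of host cells was measured, and marker genes were read only through the methylation of their promoters. Of 17 leukocyte marker genes, 5 had a tested promoter, with list means of 52.4% and 60.4% in 344SQP and 42.7% and 37.5% in 344SQR, so both 344SQR tumors were lower in the list mean, though in only 1 of the 5 genes, Adgre1, which had 1 site. Of the 5, Coro1a alone had at least 5 sites, with 18.4% and 25.2% in 344SQP and 18.1% and 28.6% in 344SQR. Of the list, 3 fell and 0 rose by the likelihood ratio test, and edgeR called 0. The counts of each marker list stand beside 5932 (29.5%) of all 20135 promoters that fell and 1816 that rose. Of 11 stromal markers, 7 were tested, with means of 42.6% and 48.6% in 344SQP and 36.1% and 46.6% in 344SQR, where 2 fell and 1, the endothelial receptor gene Kdr, rose with overlapping tumors. Of 8 epithelial markers, 7 were tested, at 13.6% and 12.2% in 344SQP and 12.7% and 9.64% in 344SQR, where 3 fell, Krt18 among them, all 3 with overlapping tumors, and 0 rose. Chromosome X held 1.59% and 1.28% of the CpG calls of the 344SQP tumors and 1.51% and 1.18% of those of the 344SQR tumors. Chromosome Y held 0.0406% and 0.0254% in 344SQP and 0.0555% and 0.0178% in 344SQR, so replicate 2 was lower in both lines. The part of these markers, of the sex chromosome shares and of depth in the values of the 7 genes was not tested.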

How the data were processed

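The assay was reduced representation bisulfite sequencing of 4 tumors. The authors trimmed reads with Trim Galore 0.4.1 and cutadapt 1.9.1, mapped them with Bismark and Bowtie 1.1.2 to mm10, and deposited for each CpG cytosine and tumor the coverage as counts of reads and the percent of reads methylated and unmethylated, neither normalized nor pooled. Methylated reads were recomputed as coverage times percent. TSSs came from the GENCODE vM21 basic annotation, and the windows of a gene's TSSs were joined. A logistic model without overdispersion gave a likelihood ratio p for each site (floor 2.2e-16), sites were combined by signed Stouffer z, and promoters were adjusted by Benjamini-Hochberg and called at an FDR under 0.05. edgeR 4.0.16 (R 4.3.3) tested summed reads with the spread between tumors. Python 3.11.15 with numpy 2.4.6, scipy 1.17.1 and pandas 2.3.3 did the rest. The tests were tested on simulated data, with reads drawn independently and no spread between the tumors of a line. The simulation therefore cannot show how many false calls the likelihood ratio test makes where tumors of a line differ. Where simulated tumors covered the sites of a promoter unevenly, edgeR on summed reads made more false calls than its threshold allows, most of them with the replicate block.

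The genes and lists were chosen with earlier results of these data known. Genes named were the 7 genes, genes overlapping their promoters or flanks, their paralogs and partners, up to 3 called genes of each list with at least 5 sites and the largest difference, and for each of the 7 the promoter with the closest values. Alternatives were coverage minimums of 10 and 50, merged strands, the 5′ TSS only, all transcripts, pooled reads, each tumor left out, edgeR, a replicate block and flanks of 2 kb.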

Additional observations from a re-analysis of the deposited data

How the results depend on the processing

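With coverage minimums of 10 or 50 reads, merged strands, other TSSs or transcripts, or a tumor left out, 6566 to 8582 promoters were called, beside 7750 (6566 to 8488 with a tumor left out, 4394 to 6082 lower and 798 to 2603 higher). The edgeR test called 14 promoters and 0 of the 7 genes (6 of 7, and 7.9% of all promoters, lower at an unadjusted p under 0.05). All other settings called the 7 genes. The tumors of a line carry the numbers 1 and 2, and the labels name no batch that equal numbers share, but across 20135 promoters the deviations of equally numbered tumors correlated (r = 0.663; promoters are not independent replicates). With the number as a replicate block, edgeR called 2367 promoters and 7 of 7 genes, and the Mantel-Haenszel test called 7549 promoters, 7326 of them among the 7750. The median difference of the 7 genes, -22.9 points, ran from -28.6 to -17.1 with a tumor left out and was -23.1 with reads pooled. Leaving out 1 of 2 tumors moves a mean by less than its SD by construction. Of the 42 other single-gene alternatives, 41 moved by less than the larger of the SDs of the 2 lines and 0 changed sign. The exception was Ampd3 from the 5′ TSS alone (-19.9 in place of -11.1). For Snord37 that SD was 23.1 points, so its -26.5 points at a coverage minimum of 10, in place of -34.5, counted as not moved. In 2 kb flanks, the upstream difference of Snord37 changed sign (0.144 in place of -0.375 points), since the shorter flank leaves out the 7 farthest sites, whose difference was -4.01 points. The downstream difference of Ampd3 was -3.04 in place of -7.21. The flanks of Klhl1 and Fam196a without each tumor were added after seeing the data and ran from -41.0 to -6.03 and from -25.8 to -7.59. A site with 20 reads resolves steps of 5 points.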
